A study of Mus musculus with 9 samples.

Results

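Tight junctions seal the space between neighbouring epithelial cells near their apical side and hold apical and basolateral membrane proteins apart. Their strands are built of claudins, a family of small membrane proteins of which different epithelia use different members, together with occludin, tricellulin and other proteins of the MARVEL family. Scaffold proteins of the ZO family tie the strands to actin, and junctional adhesion molecules and polarity complexes lie beside them. The epiblast becomes a polarised epithelium around implantation, the time of the step from naive to primed pluripotency.

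The genes described are the 9 claudin and tight junction genes Cldn1, Cldn3, Cldn4, Cldn6, Cldn7, Ocln, Tjp1, F11r and Cgn, out of 18193 genes tested. They were named by symbol with earlier results of these data known, so their counts and medians beside all genes describe this choice only. Each gene was read from the probe sets that the platform annotation gives to it alone. Where several remained, the brightest on average was taken. Together the 9 genes had 18 probe sets, 4 genes having a single one and 5 having several. Total RNA was measured on 9 Affymetrix mouse expression arrays, 3 in each of 3 groups that the labels call biological replicates. ESC are mouse embryonic stem cells grown on gelatine in N2B27 medium that held 1000 U/ml of LIF and 250 ng/ml of Wnt3a. EpiSC with IWP2 are epiblast stem cells grown on gelatine and serum-coated plates in N2B27 medium that held 20 ng/ml of Activin A and 12 ng/ml of bFGF, and given IWP2, which blocks the acyltransferase Porcupine and with it the secretion of Wnt proteins. EpiSC with vehicle had the same medium and, in place of IWP2, a vehicle that the labels do not name. The labels' treatment text also mentions Wnt3a following IWP2, a condition not analysed here. All 3 groups carry the strain label C57BL/6, without an engineered allele named. The labels name neither the lines nor the dose and length of the IWP2 treatment, and cell type and medium changed together between ESC and EpiSC. Nothing in the labels says that replicates came from separate lines, so the p-values measure the spread between these cultures.

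The values are log2 signals, and those of different probe sets have no common scale, so levels are compared between groups and never between genes. The lower quartile of all values was 3.72 and their median 5.24, and differences are compressed for genes near the lower quartile. The groups carried their defining markers. In ESC the array means of 8 naive genes were 10.70 to 10.71, with IWP2 they were 3.87 to 3.99, and with vehicle 3.97 to 4.11. Those of 6 primed epiblast genes were 6.73 to 6.82 in ESC, 10.78 to 10.81 with IWP2 and 11.57 to 11.74 with vehicle. Replicates correlated at 0.997 to 0.998 over all probe sets. As a sign of RNA quality, the actin control's signal at the 3' end exceeded that at the 5' end by 0.64 to 0.66 log2 in ESC, 0.64 to 0.69 with IWP2 and 0.53 to 0.59 with vehicle. In bulk RNA of a culture, fewer cells that express a gene and less RNA per cell cannot be told apart.

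The genes lie on 8 chromosomes in the RefSeq annotation of GRCm38.p6. Cldn4 (chr5:134945123-134946934) and Cldn3 (chr5:134986214-134987476) are neighbours with 39279 bases and no annotated gene between them. Cldn6 (chr17:23679348-23682446) lies 137 bases from Cldn9, and Cldn7 is at chr11:69964779-69967886. Where in each transcript the array probes lie was not analysed here. RefSeq promoter windows, which run from 250 bases before to 50 bases after a transcription start, were found for 9 of the 9 genes, in 11 windows. Shown are those of the 4 genes that were lower with IWP2 (Cldn4, Cldn6, Cldn7 with both of its starts, and F11r) and that of Cldn3, the neighbour of Cldn4 that was not called. Each reads 5′ to 3′ along the gene, and capitals mark CAGGTG or its reverse complement CACCTG, the E-box that Snail and Zeb family repressors are known to bind.
Cldn4 (chr5:134946885-134947184, minus strand): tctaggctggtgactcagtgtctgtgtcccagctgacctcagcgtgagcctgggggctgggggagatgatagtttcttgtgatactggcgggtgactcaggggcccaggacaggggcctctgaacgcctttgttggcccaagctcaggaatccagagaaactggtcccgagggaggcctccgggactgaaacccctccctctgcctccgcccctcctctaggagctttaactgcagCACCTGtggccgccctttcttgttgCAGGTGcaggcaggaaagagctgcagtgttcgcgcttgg
Cldn6 (chr17:23679115-23679414, plus strand): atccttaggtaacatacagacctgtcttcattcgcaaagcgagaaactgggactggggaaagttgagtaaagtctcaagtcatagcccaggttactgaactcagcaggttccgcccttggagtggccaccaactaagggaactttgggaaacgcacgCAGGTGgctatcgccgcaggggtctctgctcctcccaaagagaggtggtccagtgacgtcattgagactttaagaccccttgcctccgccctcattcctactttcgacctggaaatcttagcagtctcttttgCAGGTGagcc
Cldn7, upstream start (chr11:69964529-69964828, plus strand): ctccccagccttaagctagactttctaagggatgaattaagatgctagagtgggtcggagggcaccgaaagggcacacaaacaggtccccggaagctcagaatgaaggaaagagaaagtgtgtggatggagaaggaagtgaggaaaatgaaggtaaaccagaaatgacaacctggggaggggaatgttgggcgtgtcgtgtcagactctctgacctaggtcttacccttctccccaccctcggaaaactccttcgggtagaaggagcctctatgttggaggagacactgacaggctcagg
Cldn7, downstream start (chr11:69965171-69965470, plus strand): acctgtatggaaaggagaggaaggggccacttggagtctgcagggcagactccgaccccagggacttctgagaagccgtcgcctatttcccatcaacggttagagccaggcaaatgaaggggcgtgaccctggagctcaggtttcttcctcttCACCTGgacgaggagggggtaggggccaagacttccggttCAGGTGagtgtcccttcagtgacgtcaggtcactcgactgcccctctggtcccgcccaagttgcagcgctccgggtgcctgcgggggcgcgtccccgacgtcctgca
F11r (chr1:171437311-171437610, plus strand): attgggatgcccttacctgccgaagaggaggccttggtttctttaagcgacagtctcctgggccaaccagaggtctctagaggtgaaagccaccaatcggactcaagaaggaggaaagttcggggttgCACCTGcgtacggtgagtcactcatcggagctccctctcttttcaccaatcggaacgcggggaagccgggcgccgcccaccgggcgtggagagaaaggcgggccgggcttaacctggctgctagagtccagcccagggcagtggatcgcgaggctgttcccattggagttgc
Cldn3 (chr5:134985964-134986263, plus strand): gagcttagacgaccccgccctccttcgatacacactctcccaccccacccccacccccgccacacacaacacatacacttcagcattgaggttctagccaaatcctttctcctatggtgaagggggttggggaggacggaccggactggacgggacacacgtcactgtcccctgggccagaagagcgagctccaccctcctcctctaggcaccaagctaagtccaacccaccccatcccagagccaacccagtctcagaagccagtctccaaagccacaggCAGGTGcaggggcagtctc

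CAGGTG, read on both strands, was present in 7 of the 11 windows and 4 windows held it at least 2 times. Among all 32851 RefSeq windows of this length, 20.2% held it and 2.88% held it at least 2 times. Counted from the start site, with +1 as its first base, the matches of Cldn4 began at -14 and 12, those of Cldn6 at -93 and 41, and those of the downstream Cldn7 start at -97 and -57. Matches began at -122 in F11r and at 32 in Cldn3. The 4 genes lower with IWP2 all had a match, and so did 2 of the other 5, Cldn3 and Ocln. Whether matches go with the IWP2 difference was not tested, and the 20.2% is a share of windows, not of genes. The Ocln windows share 80 bases and one of their matches. The AP-1 letters TGANTCA occurred at -240 and -158 in Cldn4 and at -109 in F11r, and in 7.81% of all windows. A form of the grainyhead letters AACCNGTT, on the reverse strand, was found in Cgn alone, at -29, and in 2.09% of all windows. GGGCGG, the GC box, occurred in 35.7% of all windows and in each member gene, and CTTTGA, part of a TCF/LEF site, in 16.0% of all windows and 0 of the 11. No matches of different motifs overlapped in the 11 windows. These matches are letters in a window and say nothing of binding.

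**Figure D1:**
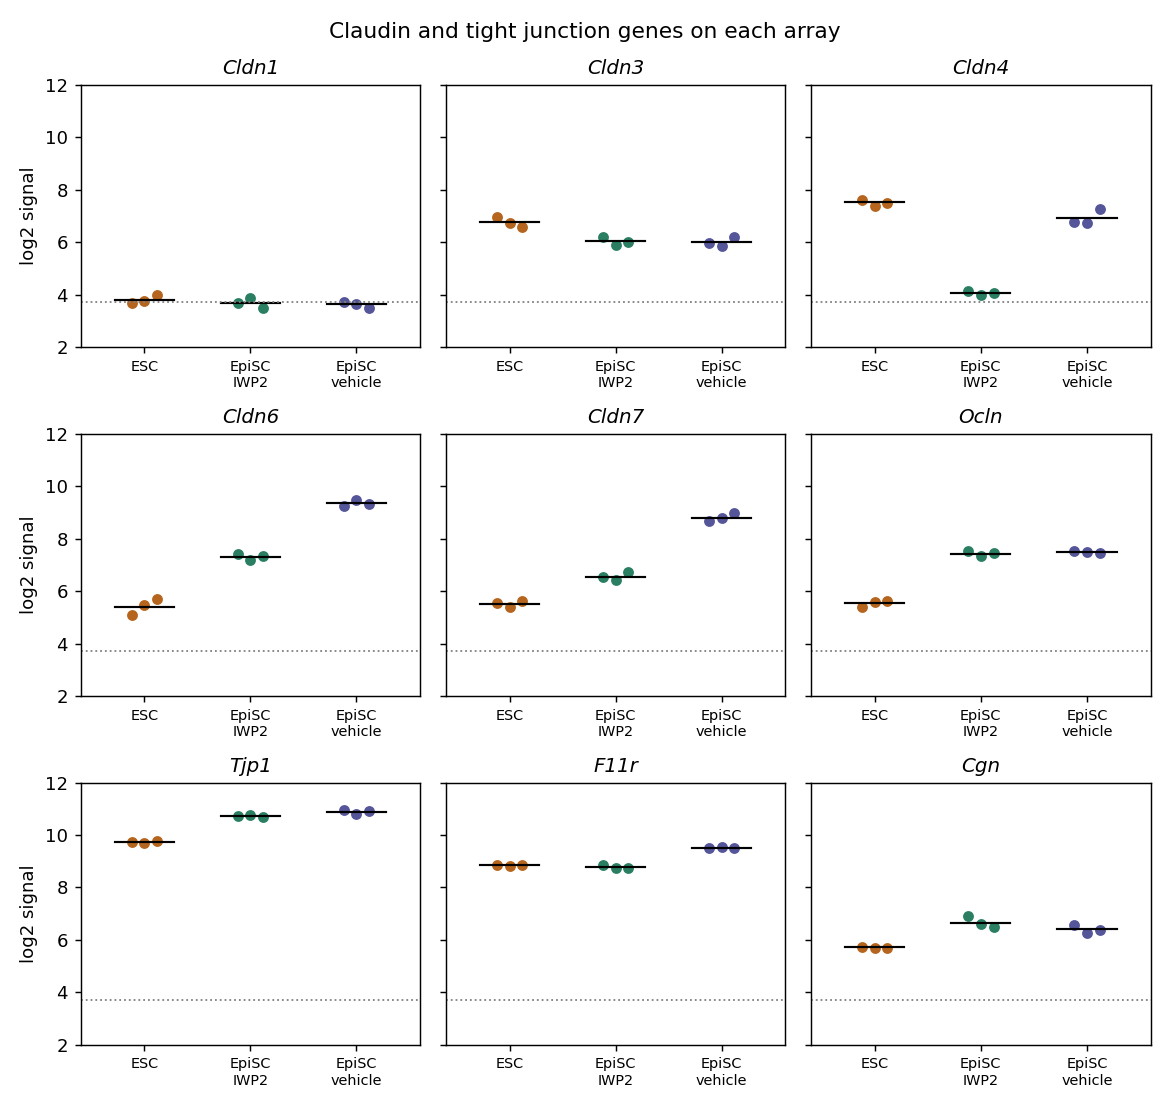
Log2 signal (vertical axis, arbitrary units) of the 9 genes in ESC, EpiSC with IWP2 and EpiSC with vehicle. Each point is 1 array, the black line is the mean of 3 arrays, and the dotted line at 3.72 is the lower quartile of all values. Cldn4 is low with IWP2 alone, Cldn6 and Cldn7 step up from ESC over IWP2 to vehicle, and Ocln, Tjp1 and Cgn are low in ESC.

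The comparison of IWP2 with vehicle asked what blocking Wnt secretion does to EpiSCs. Among the claudins, Cldn4 fell by 2.86, Cldn7 fell by 2.25 and Cldn6 fell by 2.05 on the log2 scale, and F11r, the gene for junctional adhesion molecule A, fell by 0.75. The signals of Ocln, Cldn3 and Cldn1 differed by 0.06 or less in size between the groups. Of the 9 genes, 4 were lower with IWP2, 0 were higher and 5 were not called (limma adjusted p under 0.05 over all genes). Of all genes tested, 33.5% were called, 16.8% as lower and 16.6% as higher. Falls of at least 2-fold were called for 3 of the 9 genes and for 2.81% of all genes, and rises of that size for 0 of the 9 and 0.901%. The median difference of the 9 genes was -0.16, against 0.03 for all genes.

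Cldn4 encodes a barrier-forming claudin that is also a receptor for Clostridium perfringens enterotoxin. Its signal was 4.14, 3.99 and 4.08 with IWP2, against 6.79, 6.73 and 7.27 with vehicle. All 3 IWP2 arrays lay close to the lower quartile of all values, and the groups did not overlap. The means were 4.07 ± 0.079 and 6.93 ± 0.293 (SD, n = 3), a difference of -2.86 ± 0.130 (SE), or 7.26-fold, with limma adjusted p = 2.03e-07. When 32 was added to the linear signal, which damps differences near the floor, the difference was -1.66 and was still called.

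Cldn6 encodes a claudin of embryonic epithelia, known also as a surface protein of human pluripotent stem cells. Its signal was 7.4, 7.17 and 7.32 with IWP2, against 9.23, 9.49 and 9.33 with vehicle. The 2 groups were apart and the IWP2 arrays stayed well above the median of all values. The difference was -2.05 ± 0.137 (SE), 4.15-fold (limma adjusted p = 3.13e-06).

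Cldn7, whose protein binds the adhesion molecule EpCAM in other epithelia, was at 6.52, 6.44 and 6.71 with IWP2, against 8.66, 8.77 and 8.97 with vehicle. It too fell on every IWP2 array without overlap. The difference was -2.25 ± 0.1 (SE), 4.74-fold (limma adjusted p = 1.76e-07). F11r was at 8.84, 8.75 and 8.75 with IWP2, against 9.51, 9.56 and 9.50 with vehicle. The smaller difference of -0.75 ± 0.053 (SE) separated all arrays of the groups (limma adjusted p = 5.1e-06). It rests on the brighter of 2 F11r probe sets. The dimmer set, at a mean of 5.22, differed by -0.05 ± 0.074 (SE, adjusted p = 0.666 over all probe sets).

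Cldn3, a barrier-forming claudin and the chromosomal neighbour of Cldn4, was at 6.20, 5.91 and 6.01 with IWP2, against 5.97, 5.86 and 6.19 with vehicle. The groups overlapped. The difference was 0.03 with a 95% confidence interval of -0.24 to 0.30. Of its 3 other probe sets, the one at a mean of 5.74 was lower by 0.51 (adjusted p = 0.00127 over all probe sets) and the other two were not called, so the probe sets of Cldn3 disagree. Cldn1, needed for the skin barrier of mice, stayed near the lower quartile in all 3 groups, between 3.49 and 3.97 over the 9 arrays, and its 4 probe sets gave no call in any comparison.

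Ocln encodes occludin, a MARVEL protein of the strands. Its signal was 7.52, 7.32 and 7.44 with IWP2, against 7.51, 7.48 and 7.46 with vehicle. These values overlapped, and the difference of -0.06 had a 95% confidence interval of -0.23 to 0.12 (limma adjusted p = 0.633). Tjp1 encodes ZO-1, the scaffold that binds claudins and occludin. It was at 10.73, 10.75 and 10.68 with IWP2, against 10.95, 10.79 and 10.90 with vehicle. The IWP2 arrays were all slightly lower, by 0.16 on average (95% confidence interval of the difference -0.29 to -0.03), which did not pass over all genes (limma adjusted p = 0.058). In 6 of 21 other settings it did, 1 of them leaving out vehicle replicate 2 (adjusted p = 0.029), with adjusted p between 0.00779 and 0.175 over the 21. Cgn encodes cingulin, a plaque protein that links ZO proteins to myosin and to the exchange factor GEF-H1. It was at 6.91, 6.60 and 6.48 with IWP2, against 6.58, 6.26 and 6.38 with vehicle. These groups overlapped, with a difference of 0.26 ± 0.112 (SE, limma adjusted p = 0.107).

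**Figure D2:**
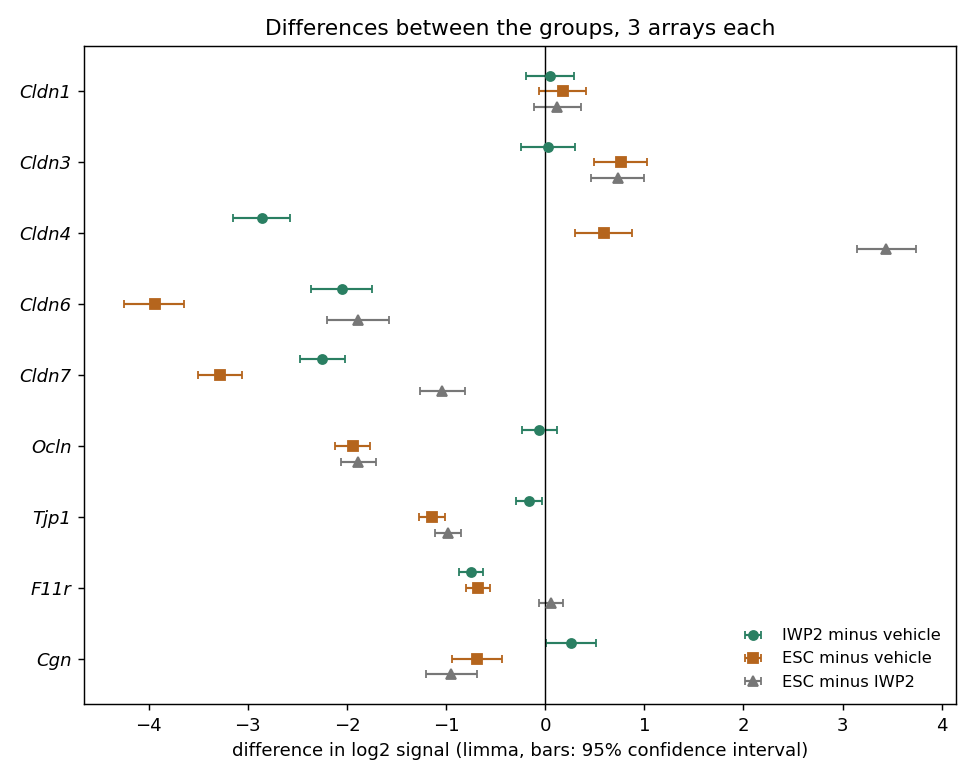
Difference in log2 signal (horizontal axis) of each gene for IWP2 minus vehicle (circles), ESC minus vehicle (squares) and ESC minus IWP2 (triangles), with 95% confidence intervals from limma, n = 3 arrays per group. The largest differences are -3.94 for Cldn6 in ESC minus vehicle and 3.44 for Cldn4 in ESC minus IWP2, and the intervals of Cldn1 include 0 in all 3 comparisons.

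Markers of endoderm, an epithelium that EpiSC cultures can form, moved in the same comparison, where 16.8% of all genes were lower and 16.6% higher. Of 8 definitive endoderm genes, 8 were lower with IWP2. Their mean log2 signal was 4.0 to 4.21 on IWP2 arrays and 8.4 to 8.57 on vehicle arrays, and 2 of the 8 had a mean under the lower quartile with IWP2 and 0 with vehicle. Of 6 extraembryonic endoderm genes, 3 were lower, with list means of 4.13 to 4.20 with IWP2 and 5.07 to 5.22 with vehicle. Gata6 carried most of that gap, at 4.29 ± 0.07 with IWP2 and 8.28 ± 0.196 with vehicle (SD, n = 3). Of 7 trophoblast genes, 3 were lower, with list means of 4.28 to 4.43 with IWP2 and 5.57 to 5.70 with vehicle. The 3 were Eomes, Krt7 and Gata3, and the other 4 were not called. Of 5 genes of surface ectoderm and other epithelia, 1 was lower, Krt19, a simple epithelial keratin, at 4.57 ± 0.184 with IWP2 and 9.06 ± 0.365 with vehicle (SD, n = 3). Of 6 fibroblast and feeder genes, 2 were higher and 3 lower, at 5.37 to 5.45 with IWP2 and 5.83 to 6.17 with vehicle. The part of these cell types in the falls of Cldn4, Cldn6, Cldn7 and F11r was not tested. Of 6 epithelial partner genes of these junctions, 6 were lower as well. Krt8, another simple epithelial keratin, was at 8.01 ± 0.070 with IWP2 and 12.82 ± 0.115 with vehicle (SD, n = 3), and Cdh1, the E-cadherin gene, fell by 0.45.

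Of 54 other tight junction and polarity genes listed, 48 were measured. With IWP2, 9 were higher, 8 lower and 31 not called, where all genes gave 16.6% higher and 16.8% lower, and the median of the list was -0.02. St14, the gene of the membrane protease matriptase, was the largest called fall among genes above the median signal. It was at 5.88, 5.79 and 5.91 with IWP2, against 7.33, 7.35 and 7.46 with vehicle, a difference of -1.52 ± 0.059 (SE, limma adjusted p = 6.36e-08). Cgnl1, a paralogue of cingulin, fell by 1.05, Spint2, an inhibitor of matriptase, fell by 0.52, and Lsr, which recruits tricellulin to corners between cells, fell by 0.47. The highest called rises among genes reaching that signal were Tjp3, the gene of the scaffold ZO-3, at 0.69 ± 0.130 (SE, limma adjusted p = 0.00269), Prkci, an atypical protein kinase C of the apical polarity complex, at 0.55, Pard6g, its partner, at 0.47, and Mpp5, the Crumbs complex scaffold Pals1, at 0.25. Under it, Cldn11 (0.34), Cldn16 (0.32) and Cldn14 (0.24) were also called higher, and Cldn23 (-0.99), Cldn10 (-0.34) and Pard3b (-0.26) lower. Cldn11 and Cldn23 had all their group means under the lower quartile. Among those not called was the scaffold gene Mpdz, with means of 9.42 ± 0.033 with IWP2 and 9.44 ± 0.032 with vehicle (SD, n = 3).

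The second comparison was of ESC with vehicle EpiSC, which differ in cell type and medium together. Cldn6, Cldn7, Ocln and Tjp1 were at least 2-fold lower in ESC, F11r and Cgn were lower by 0.68 and 0.69 log2, and Cldn3 and Cldn4 were higher by 0.76 and 0.59. Of the 9 genes, 6 were lower, 2 higher and 1, Cldn1, was not called. Of all genes, 66.6% were called, 27.9% as lower and 38.7% as higher. Lower by at least 2-fold were 4 of the 9 genes and 9.63% of all genes, and higher by that much 0 of the 9 and 6.87%. The median difference of the 9 genes was -0.69, with 0.12 for all genes. This comparison and the previous one use the same vehicle arrays.

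Markers of other cell types were called in this comparison too, where 27.9% of all genes were lower and 38.7% higher. Of the 8 definitive endoderm genes, 7 were lower in ESC and 1, Trh, was higher. Their list means were 4.96 to 5.05 in ESC and 8.4 to 8.57 with vehicle, and 2 of the 8 had a mean under the lower quartile in ESC and 0 with vehicle. Of the 6 fibroblast and feeder genes, 4 were lower and 1 higher, with list means of 4.66 to 4.67 in ESC and 5.83 to 6.17 with vehicle. Of the 6 extraembryonic endoderm genes 3 were lower and 1 higher, of the 7 trophoblast genes 3 were lower and 3 higher, and of the 5 surface ectoderm genes 1 was lower and 1 higher. Of the 6 epithelial partner genes, 5 were lower and 1, the transcription factor gene Grhl2, was higher, by 1.83. Krt8 had the largest of these differences, at 6.09 ± 0.099 in ESC and 12.82 ± 0.115 with vehicle (SD, n = 3). Their part in the differences of the 9 genes was not tested.

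Cldn6 was at 5.09, 5.46 and 5.68 in ESC, against 9.23, 9.49 and 9.33 in vehicle EpiSC. The ESC values lay near the median of all probe sets, far under each vehicle array. The difference of -3.94 ± 0.137 (SE) is 15.4-fold (limma adjusted p = 3.45e-09). Cldn7 was at 5.53, 5.40 and 5.62 in ESC, and its difference from the vehicle arrays given above was -3.28 ± 0.1 (SE), 9.72-fold (limma adjusted p = 1.34e-09).

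Ocln was at 5.39, 5.59 and 5.63 in ESC. Each of these arrays lay under all 6 EpiSC arrays, and the difference from vehicle was -1.94 ± 0.078 (SE), 3.84-fold (limma adjusted p = 1.01e-08). Its second probe set, at a mean of 5.78, was lower by 0.91 (adjusted p = 0.00023 over all probe sets). Tjp1 was at 9.74, 9.70 and 9.78 in ESC, a difference of -1.14 ± 0.058 (SE), 2.21-fold (limma adjusted p = 6.31e-08). Cgn was at 5.74, 5.70 and 5.71 in ESC, close together and under the 6 EpiSC arrays, with a difference of -0.69 ± 0.112 (SE, limma adjusted p = 0.000394). The dimmer Cgn probe set, at a mean of 4.57, gave 0.30 ± 0.169 (SE, adjusted p = 0.15 over all probe sets), and the mean of both sets, at -0.20, was not called. F11r was at 8.87, 8.80 and 8.85 in ESC, lower by 0.68 ± 0.053 (SE, limma adjusted p = 1.6e-06). Its dimmer probe set was instead higher in ESC, by 0.20 (adjusted p = 0.0383 over all probe sets), so the direction for F11r rests on the brighter set. The mean of both sets gave -0.24 and was called.

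Cldn4 was at 7.63, 7.4 and 7.51 in ESC, against 6.79, 6.73 and 7.27 in vehicle EpiSC. Without overlap, the gap between the nearest arrays was small, and the difference was 0.59 ± 0.130 (SE, limma adjusted p = 0.00278). Cldn3 was at 6.98, 6.74 and 6.58 in ESC, a difference of 0.76 ± 0.121 (SE, limma adjusted p = 0.000329). All 4 of its probe sets were higher in ESC, by 0.64 to 0.98 log2. The neighbouring claudin genes were therefore both higher in ESC than in vehicle EpiSC. For IWP2 minus vehicle, Cldn4 gave -2.86 and the brightest Cldn3 probe set gave 0.03. Of the dimmer Cldn3 sets, the one at a mean of 5.74 gave -0.51 and was called, and the others were not.

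**Figure D3:**
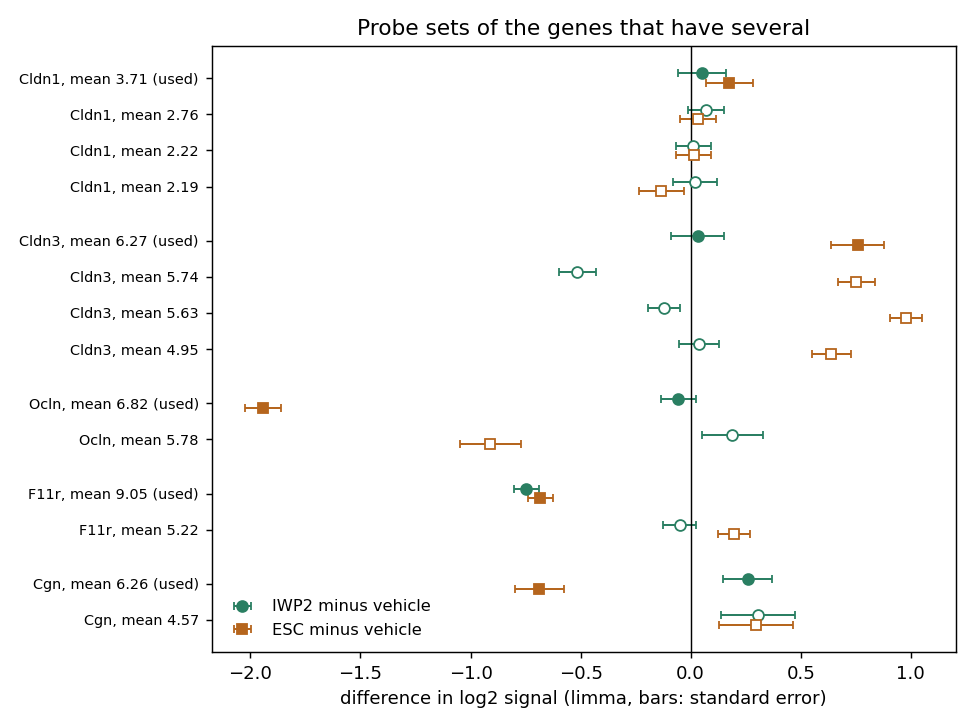
Difference in log2 signal (horizontal axis, bars show the standard error from limma) for each of the 14 probe sets of the 5 genes that have several, with each set's mean over the 9 arrays at the left. Circles are IWP2 minus vehicle, squares ESC minus vehicle, and filled symbols mark the set used. For ESC minus vehicle the sets of Cldn3 lie between 0.64 and 0.98, and those of F11r and of Cgn on opposite sides of 0.

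Among the 48 other genes, 25 were lower in ESC than in vehicle EpiSC, 13 of them by at least 2-fold, 10 were higher and 13 had no call. Of all genes, 27.9% were lower, 9.63% by at least 2-fold, and 38.7% higher. The median difference of the 48 genes was -0.27. Jam2, the gene for junctional adhesion molecule B, stood out in the other direction. It was at 10.05, 10.11 and 10.12 in ESC, against 4.29, 4.61 and 4.32 in vehicle EpiSC, a difference of 5.69 ± 0.085 (SE, limma adjusted p = 1.2e-11). Of the called genes whose higher group mean reached the median signal of 5.24, the next rises were Esam (0.60), a junctional adhesion protein of endothelium, Prkci (0.46) and the actin regulator Vasp (0.19). For Esam the ESC and vehicle arrays overlapped (limma adjusted p = 0.0121). The other 6 called rises were claudins under that signal, up to 0.65 for Cldn5, a claudin of endothelium. Jam3, a related adhesion molecule, was lower by 1.27 log2.

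The strongest fall in ESC was that of Mpdz, the gene of the multi-PDZ scaffold MUPP1, which was at 4.65, 4.82 and 4.49 in ESC, against 9.42, 9.48 and 9.42 in vehicle EpiSC. This is a difference of -4.79 ± 0.078 (SE, limma adjusted p = 2.01e-11). Marveld2, which encodes tricellulin, fell by 3.90, Patj, a scaffold of the Crumbs complex, fell by 2.96, and Marveld3, a further MARVEL protein, fell by 2.61. Their ESC means of 3.86, 4.19 and 4.26 lay near the lower quartile of 3.72, where differences are compressed. The ESC arrays of Patj spread widely, with an SD of 0.667. The 3 MARVEL genes Ocln, Marveld2 and Marveld3 were thus each lower in ESC, and their values with IWP2 minus vehicle were -0.06, -0.24 and -0.13, none of them called. Crb3, an apical Crumbs protein, was lower by 2.11 log2 and Epcam by 0.99.

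Of 15 claudins outside the 9 genes, 13 had group means under the median of all values in every group. The exceptions were Cldn12, an atypical claudin, and Cldn22, both named after their values were seen. Cldn12 was at 9.02 ± 0.052 in ESC, 9.68 ± 0.085 with IWP2 and 9.81 ± 0.045 with vehicle (SD, n = 3), a difference of -0.79 ± 0.062 (SE, limma adjusted p = 1.66e-06) for ESC minus vehicle. Cldn22 was not called in any of the 3 comparisons. Cldn9, 137 bases from Cldn6, had means of 4.65 in ESC, 4.32 with IWP2 and 4.53 with vehicle, and was not called for IWP2 minus vehicle (-0.21) or ESC minus vehicle (0.12). For ESC minus IWP2 it was higher by 0.33 (limma adjusted p = 0.00472).

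**Figure D4:**
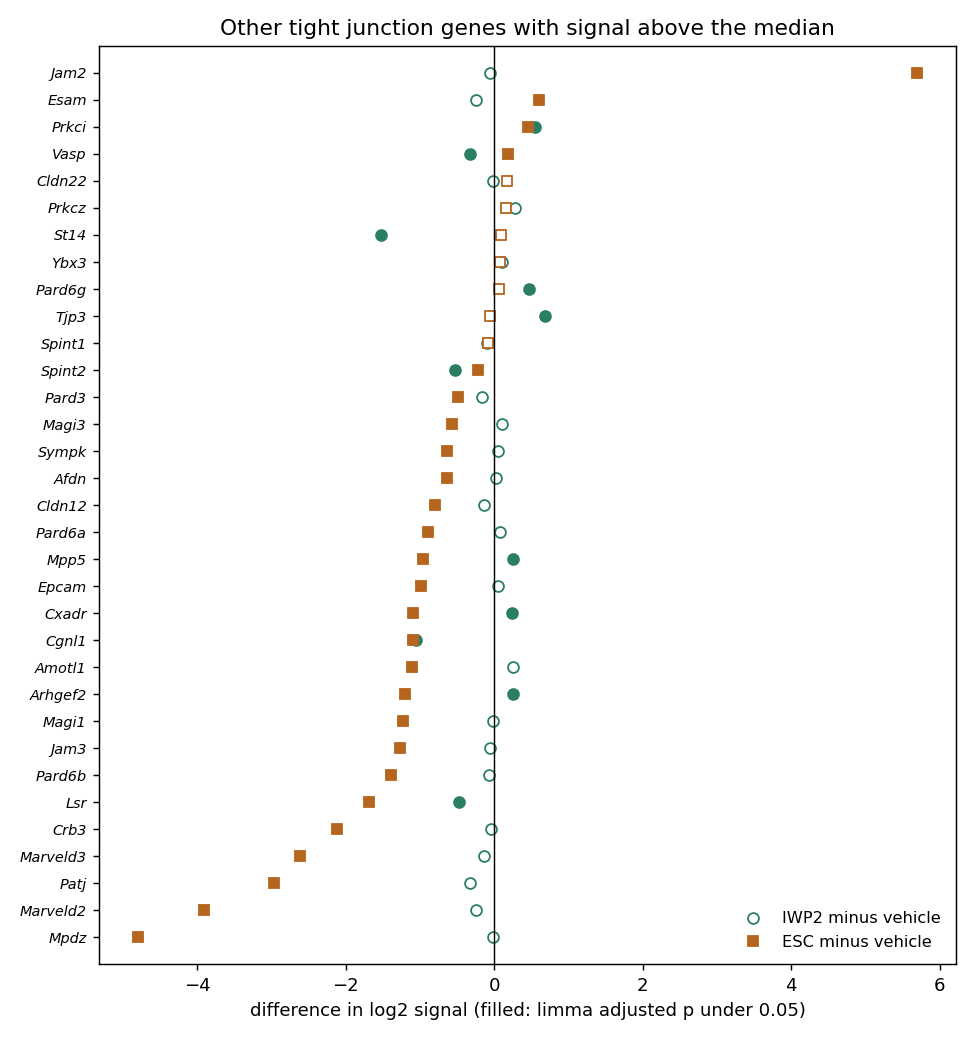
Difference in log2 signal (horizontal axis) of the 33 other tight junction genes with at least 1 group mean at or above the median of all values, for IWP2 minus vehicle (circles) and ESC minus vehicle (squares). Filled symbols passed limma's adjusted p. The squares run from -4.79 for Mpdz to 5.69 for Jam2, and the circles from -1.52 for St14 to 0.69 for Tjp3.

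The third comparison set ESC against EpiSC with IWP2. Cldn4 was 10.9-fold higher in ESC and Cldn3 was higher by 0.73 log2, while Cldn6, Cldn7, Ocln, Tjp1 and Cgn were lower. Of the 9 genes, 5 were lower, 2 higher and 2 not called, where 62.1% of all genes were called, 26.9% as lower and 35.2% as higher. At least 2-fold lower were 3 of the 9 and 9.4% of all genes, and at least 2-fold higher 1 of the 9 and 7.87%. The median of the 9 genes was -0.95, against 0.10 for all genes.

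For Cldn4 the ESC arrays (7.63, 7.4 and 7.51) and the IWP2 arrays (4.14, 3.99 and 4.08) were more than 3 log2 units apart, with a difference of 3.44 ± 0.130 (SE, limma adjusted p = 5.86e-09). The order of its levels was ESC, vehicle and IWP2, and each step was called. For Cldn6 and Cldn7 the order was vehicle, IWP2 and ESC, again with each step called. The last step was -1.89 ± 0.137 (SE, limma adjusted p = 8.3e-07) for Cldn6 and -1.04 ± 0.1 (SE, limma adjusted p = 7.47e-06) for Cldn7.

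For Ocln, Tjp1 and Cgn, both EpiSC groups were above ESC and their own order was not called. ESC minus IWP2 was -1.89 ± 0.078 for Ocln, -0.98 ± 0.058 for Tjp1 and -0.95 ± 0.112 for Cgn (SE, limma adjusted p of 1.2e-08, 1.86e-07 and 3.6e-05). The dimmer Cgn probe set gave -0.007 for ESC minus IWP2 (adjusted p = 0.974 over all probe sets). For F11r, vehicle was above ESC and IWP2 by the brighter probe set. These lower groups differed by 0.06 with a 95% confidence interval of -0.06 to 0.18 (limma adjusted p = 0.332). The dimmer F11r set was higher in ESC than with IWP2, by 0.249 (adjusted p = 0.0145 over all probe sets). For Cldn3, ESC was above both EpiSC groups, and for Cldn1 no step was called. Definitive endoderm genes, which moved with IWP2, averaged 4.96 to 5.05 in ESC and 4.0 to 4.21 with IWP2, with 5 of 8 higher in ESC, 1 of them by at least 2-fold, 0 lower and a median difference of 0.43. Trh, the gene of thyrotropin-releasing hormone, carried most of that gap, at 9.31 ± 0.02 in ESC and 4.33 ± 0.261 with IWP2 (SD, n = 3). Of all genes, 35.2% were higher in ESC and 26.9% lower. Of the trophoblast genes 4 of 7 were higher in ESC, and of the fibroblast and feeder genes 3 of 6 were lower. The part of these cell types in the differences of the 9 genes was not tested. Of the 48 other genes, 9 were higher and 23 lower, against 35.2% and 26.9% of all genes. Among those reaching the median signal, St14 was higher in ESC by 1.62 and Vasp by 0.52, Jam2 by 5.75 and Esam by 0.84. Mpdz (-4.77), Marveld2 (-3.66), Patj (-2.64) and Marveld3 (-2.49) had the largest falls.

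Genes of like pattern were looked for among 10685 genes at or above the median signal, leaving out Riken clones and Gm models. They were ranked by the Euclidean distance between array values after each gene's own mean over the 9 arrays was subtracted. Such distances mostly reflect the 3 group means. Nearest to Cldn4 were Lefty2 (distance 0.73 log2), a Nodal antagonist, Slc39a4 (0.86), a zinc transporter, and Rbm47 (0.88), an RNA-binding protein. Its nearest gene among the 9 was Cldn3, at 3.99. Nearest to Cldn6 were Emb (0.52), an immunoglobulin-family adhesion protein, Frem2 (0.61), a matrix-linked membrane protein, and Podxl (0.64), an apical sialomucin. Cldn7 stood at 1.22 from Cldn6. Nearest to Cldn7 were Atp8a1 (0.50), a phospholipid flippase, Gprc5c (0.57) and Apela (0.57), which encodes a peptide ligand of the apelin receptor. Nearest to Ocln were Cebpd (0.22), Smad5 (0.23) and Smo (0.24), and to Tjp1 Pigo (0.13), Ctbp1 (0.14) and Zcchc3 (0.15). Cldn1, Cldn3, F11r and Cgn spanned less than 1 log2 unit and were not searched.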

How the data were processed

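Labelled RNA of 9 samples was read on Affymetrix mouse expression arrays, 1 array a sample. The authors deposited log2 values for 45101 probe sets. RMA and limma are the tools in the submitters' processing notes, with no version. RMA gives quantile-normalized summaries without detection calls, so a shift in RNA content per cell would be hidden, and the arrays' medians were 5.22 to 5.26. A single gene symbol was available for 34945 probe sets, which gave 18193 genes with 1 probe set each.

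With limma 3.58.1 (R 4.3.3), lmFit and eBayes fitted the 3 group means together, with 6 degrees of freedom left (moderated, 9.58). Each contrast had a two-sided test with Benjamini-Hochberg adjustment over all genes, and "called" means an adjusted p under 0.05. Probe sets that were not chosen were read from the same fit over all 34945 probe sets. The test was checked on simulated arrays with independent normal noise and far fewer changed genes than were called here. That check does not cover changes as widespread as these. The number of arrays limits the precision.

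The members and lists were chosen with earlier results of these data known. All 9 members were named. Of the other tight junction genes, up to 4 called genes in each direction with the largest difference were named if their higher group mean reached 5.24, and for likeness the nearest 3 genes of members spanning at least 1 log2 unit. Epithelial partner genes could be named beside a result. Which of the 6 to name (Krt8, Cdh1 and Grhl2) was chosen after their values were seen. So were Cldn5, Cldn9, Cldn10, Cldn11, Cldn12, Cldn14, Cldn16, Cldn22, Cldn23, Jam3, Crb3, Epcam and Pard3b. The same holds for the markers Krt19, Trh, Eomes, Krt7, Gata3 and Gata6. It also holds for Mpdz, Marveld2 and Marveld3 in the comparison of IWP2 with vehicle. Alternatives covered the choice of probe sets, signal filter, offset, normalization, variance model, arrays fitted, replicate block, threshold and leaving out each array.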

Additional observations from a re-analysis of the deposited data

How the results depend on the processing

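Calls of the 9 genes were repeated in 21 other settings at the same threshold, 20 of them for Cldn1, which a signal filter removed. Cldn4, Cldn6, Cldn7 and F11r were lower with IWP2 in all 21, with Cldn4 between -2.96 and -1.66 and F11r between -0.78 and -0.40. Tjp1 for IWP2 minus vehicle was called in 6, F11r for ESC minus IWP2 in 1 (the mean of its probe sets, 0.16) and Cgn for ESC minus vehicle was lost in 1. No called difference changed sign in these settings, none of which read a dimmer probe set alone. Read alone, the dimmer F11r set was called higher in ESC than with vehicle, by 0.20. A test against a minimum 2-fold change called 345, 2148 and 2279 genes for IWP2 minus vehicle, ESC minus vehicle and ESC minus IWP2, against 6094, 12123 and 11298 in the main fit. By that test 3 of the 9 genes were called for ESC minus vehicle and 3 for ESC minus IWP2, and 1, 11 and 14 of the other tight junction genes. At an adjusted p under 0.01, 3886 genes and 11 of the other genes were called for IWP2 minus vehicle. Leaving out single arrays gave 4949 to 5965, 11077 to 12115 and 10565 to 11323 genes, 4 to 5, 8 and 7 of the 9 genes, and 13 to 18, 33 to 35 and 31 to 33 of the others. Among genes above the median signal, 48.0% of the calls for ESC minus vehicle were higher, against 58.1% in the main fit. With the replicate number as a block, 5754, 12024 and 11138 genes and 4, 8 and 7 of the 9 genes were called. Over all genes, arrays with the same number did not deviate together (correlations of -0.06 to 0.05). Of 18 best matches 5 were with the same number, so no pairing by number was detected. Pairing that touches only some genes was not tested. Differences near the lower quartile of 3.72, such as those of Cldn1, are limited by the signal over background.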
